A study of Mus musculus with 6 samples.

Results

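The levels of 10 genes of ceramide and sphingolipid metabolism were followed across the cells of the mouse bladder mucosa. They were the ceramidase genes Acer2, Acer3 and Asah1, the ceramide synthase genes Cers2, Cers4 and Cers5, the desaturase gene Degs1, and Ugcg, Sgms2 and Sphk1, which encode enzymes that use ceramide or its product sphingosine. The list was drawn up around Acer2, a gene known from these libraries as a marker of superficial urothelial cells, and its genes were matched by Ensembl identifier, so that 10 of the 14338 genes listed in all 6 count tables (mitochondrial and ribosomal genes left out) belong to the list. The mucosa was peeled from the bladders of wild-type C57BL/6 mice aged 8 weeks and profiled with droplet-based 3' single-cell RNA sequencing, in which every captured mRNA carries a unique molecular identifier (UMI). Healthy mice were compared with mice injured by cyclophosphamide (CPP), a drug whose breakdown product damages the urothelium. The acute group had received 1 injection of 150 mg/kg and was taken on day 2, and the chronic group had received 4 injections of 75 mg/kg and was taken on day 11, in either case with 48 h between the final dose and tissue collection. No injection is named for the healthy group, and whether it received vehicle is not given in the sources used here. Each group had 2 libraries. The study describes them as biological replicates and collected bladders from several mice per condition, but which mice went into which library is not given in the sources used here, so p-values measure the spread between libraries, which may in part be technical, and batches cannot be told apart from conditions, as the libraries were processed in batches (per the study's methods) whose members are not given in the sources used here.

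Ceramide is the hub of sphingolipid metabolism. It is built from serine and fatty acids by serine palmitoyltransferase, the ceramide synthases, each with a preference for certain acyl chain lengths, and a desaturase, and it is then turned into glycosphingolipids by way of glucosylceramide, into sphingomyelin, or, through ceramidases, into sphingosine. Sphingosine is recycled or phosphorylated to sphingosine 1-phosphate, a lipid signal with its own exporters and receptors. The urothelium is a layered epithelium in which basal cells lie under intermediate cells, and large superficial cells, whose luminal membrane is packed with uroplakin plaques, face the urine.

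All 10 genes are protein coding. On the GRCm38 build, Acer2 (ENSMUSG00000038007) lies on chromosome 4 from 86874396 to 86934822 on the plus strand, and Ugcg (ENSMUSG00000028381) lies on the same chromosome from 59189257 to 59222833. Degs1 (ENSMUSG00000038633) lies on chromosome 1 from 182275772 to 182282804, and Cers4 (ENSMUSG00000008206) on chromosome 8 from 4493026 to 4531680. Cers2 (ENSMUSG00000015714) lies on chromosome 3 from 95314791 to 95323599. The sequence before Acer2 is shown because the list is built around this gene. It comprises the 232 bases that end just before the annotated gene start, at chr4:86874164-86874395 on the plus strand, from the RefSeq promoter table of build GRCm38.p6, with matches to the GC box GGGCGG on either strand in capitals.
Acer2 promoter: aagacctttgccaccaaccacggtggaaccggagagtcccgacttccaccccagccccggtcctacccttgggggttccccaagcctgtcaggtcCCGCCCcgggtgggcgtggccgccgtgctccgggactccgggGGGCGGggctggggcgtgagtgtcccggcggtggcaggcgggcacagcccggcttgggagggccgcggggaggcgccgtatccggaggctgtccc
The 2 matches do not overlap. Over the 250 bases before each start, 32.7% of the 32851 RefSeq promoters hold GGGCGG on either strand, and so did 8 of the 20 promoters listed for 9 members (Asah1 had no entry). The E-box letters CACGTG, present in 6.02% of all promoters, had no match in the Acer2 window. The TATA box letters TATAAA, present in 12.4%, had none either, nor had the AP-1 letters TGANTCA, present in 6.75%. A match is a description of letters only.

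The tables held between 54604109 and 111985678 UMIs per library, with a median of 5530 to 9138 UMIs per cell, and 49952 cells were kept after filtering and doublet removal. Cells were clustered with the members and other sphingolipid genes held out of the clustering features, 58 genes in all, but the classes come from the same cells in which levels were then compared. Urothelial clusters held 37383 cells, which were separated into 5693 basal, 21119 intermediate and 2612 superficial cells, 2415 cycling basal and 4025 cycling intermediate cells, and 847 cells of a sub-cluster that was almost wholly cycling and carried superficial markers. The other 672 urothelial cells, 665 of them cycling cells of the superficial sub-cluster, were in none of these classes. Fibroblasts numbered 5736, myofibroblasts 4754, macrophages 926 and endothelial cells 495, with 360 cells called NK and 180 called mural. The superficial sub-cluster had the highest level of Krt20, a keratin of superficial cells, at 209 CPM (a gene's UMIs over all UMIs of the class, in the usual counts-per-million scale). Krt20 is one of the markers by which this sub-cluster was picked, so its level there is a description. A class entered a comparison in a library with at least 20 of its cells, which left the cycling cells with superficial markers in 4 libraries (14 and 8 cells in the healthy ones) and endothelial cells in 5. Libraries shared between 36 and 208 cell barcodes in pairs, where 50.1 to 212 are expected by chance. Chronic 2 held 94 fibroblasts, and one fibroblast sub-cluster of 1733 cells was led by urothelial genes such as Krt4. Another of 15 cells counted as fibroblasts was led by the lymphocyte genes Ccl5 and Gzma, and leaving it out changed no call of a member. Levels are given as CPM of a class, per library in the order healthy 1, healthy 2, acute 1, acute 2, chronic 1 and chronic 2, and the mean ± SD is over libraries. As the assay reads 3' ends, levels are compared between classes and not between genes. For comparisons between classes UMIs were summed per library and class, edgeR's quasi-likelihood test was run with the library as a block and Benjamini-Hochberg adjustment over all genes tested, and differences are log2 fold changes after TMM scaling.

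The ceramidase genes differed in how they followed the layers. Acer2, whose product cleaves ceramide in the Golgi, was measured at 52.7, 93.5, 63.9, 63.4, 104 and 114 CPM in basal cells and at 154, 176, 198, 162, 239.8 and 271 CPM in intermediate cells. In superficial cells it was measured at 620.2, 1535, 1699.9, 1111, 1274 and 1504 CPM. The layers did not overlap in any pair of libraries, and since Acer2 was taken into the list as a superficial marker these levels are a description, with no test. Healthy 1 was the lowest superficial library, and at 620.2 CPM it lay far under the others. When each cell was thinned to 2000 UMIs, the share of cells with an Acer2 UMI was 7.93% of basal, 17.1% of intermediate and 69.4% of superficial cells (25.9%, 50.7% and 96.1% without thinning), against 8.12% of fibroblasts. Thinning left out 9, 40, 37 and 427 cells that were too shallow.

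Acer3, an alkaline ceramidase of the endoplasmic reticulum and Golgi, had superficial levels of 23.9, 37.5, 40.4, 39.6, 51.6 and 40.0 CPM and intermediate levels of 21.4, 24.4, 27.5, 20.9, 30.5 and 26.3 CPM. It was higher in superficial than in intermediate cells in 6 of 6 libraries, by 0.71 (SE 0.08, edgeR adjusted p = 2.4e-07), and higher than in basal cells by 0.50 (SE 0.10, edgeR adjusted p = 9.0e-05). From basal to intermediate cells Acer3 was lower in every library, but the difference of -0.21 was not past the threshold (edgeR adjusted p = 0.063), although it was without healthy 1 (edgeR adjusted p = 0.039). The lysosomal acid ceramidase gene Asah1 stayed nearly level, with 136 ± 34.2 CPM in basal, 142 ± 33.9 CPM in intermediate and 149 ± 30.5 CPM in superficial cells (SD, n = 6), and chronic 2 was the highest library in every layer. The fit put Asah1 0.12 higher in intermediate than in basal cells, which was not called, and 0.28 higher in superficial than in basal cells (edgeR adjusted p = 6.7e-04) and 0.16 higher than in intermediate cells (edgeR adjusted p = 0.028). For the latter its CPM were higher in 3 and lower in 3 of 6 libraries, TMM scaling moved fold changes up by 0.09, and it was not called when healthy 2, acute 1, chronic 1 or chronic 2 was left out (edgeR adjusted p = 0.061 to 0.22).

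**Figure D1:**
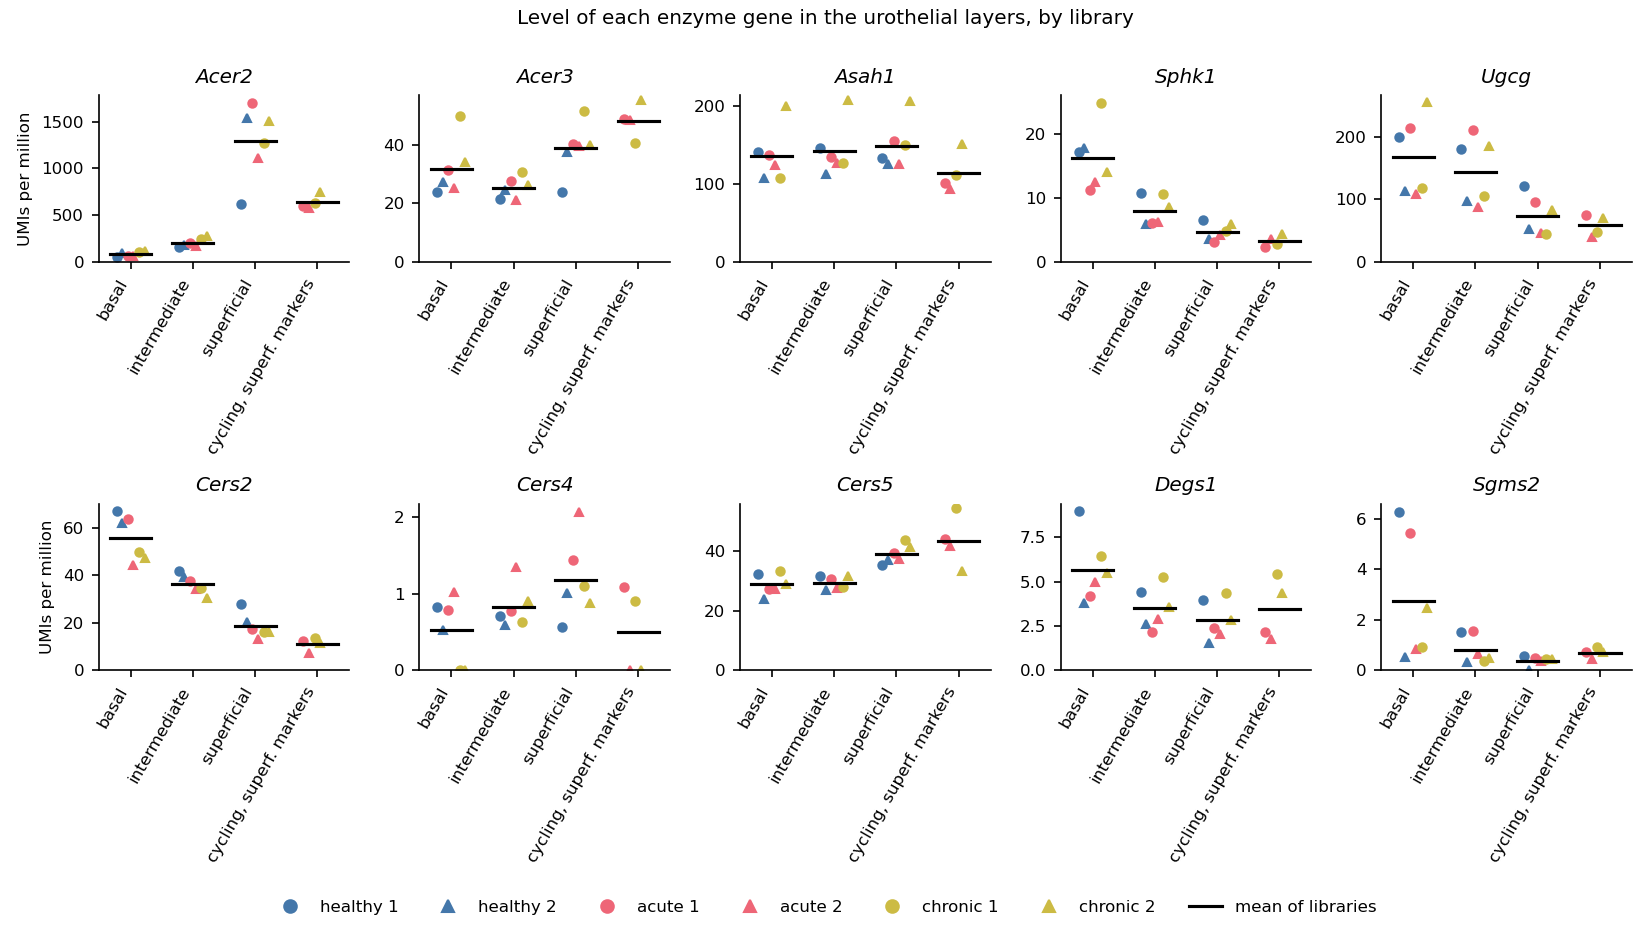
Levels of the 10 genes in CPM of the class (each vertical axis starts at 0 and has its own scale) for basal, intermediate, superficial and cycling cells with superficial markers. Points are libraries, colored by condition, and bars are means over libraries. Acer2 rises to between 620.2 and 1699.9 in superficial cells, whereas the means of Cers2, Sphk1 and Ugcg go down along the layers. For Ugcg the fall is mostly from intermediate to superficial cells.

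The genes for ceramide synthesis moved in opposite directions. Cers2, a synthase for very long acyl chains, was measured in basal cells at 67.1, 62.2, 63.9, 44.3, 49.7 and 47.3 CPM, in intermediate cells at 41.6, 39.1, 37.7, 34.4, 34.5 and 30.5 CPM and in superficial cells at 28.1, 20.3, 17.3, 13.3, 16.2 and 16.0 CPM. The 3 layers did not overlap, and in each library Cers2 fell from basal to intermediate to superficial cells. The fall was 0.55 from basal to intermediate (SE 0.07, edgeR adjusted p = 4.5e-06) and 1.46 from basal to superficial cells (SE 0.09, edgeR adjusted p = 1.3e-11). Cers5, a synthase that prefers long-chain palmitoyl substrates, showed the opposite order at the top of the epithelium. Its superficial levels were 35.4, 37.0, 39.4, 37.2, 43.7 and 41.3 CPM against 31.7, 27.0, 30.7, 27.6, 27.7 and 31.4 CPM in intermediate cells, without overlap. The difference was 0.50 (SE 0.07, edgeR adjusted p = 3.1e-06) from intermediate and 0.62 (SE 0.08, edgeR adjusted p = 1.0e-06) from basal cells, and between basal and intermediate cells 0.12 (95% interval -0.04 to 0.27).

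Degs1, the desaturase that introduces the double bond of ceramide, and Cers4, a synthase for long to very long acyl chains, were close to the limit of detection in the epithelium. Degs1 was measured at 5.64 ± 1.90 CPM in basal, 3.49 ± 1.17 CPM in intermediate and 2.85 ± 1.10 CPM in superficial cells (SD, n = 6). It was lower in intermediate than in basal cells in 6 of 6 libraries (-0.68, SE 0.14, edgeR adjusted p = 6.8e-04). Between superficial and intermediate cells the difference was -0.19 (95% interval -0.54 to 0.15, edgeR adjusted p = 0.38), and between superficial and basal cells -0.87 (SE 0.19). Cers4 was covered by 15 UMIs in all basal, 90 in all intermediate and 30 in all superficial cells, and in the basal cells of chronic 1 and chronic 2 by 0 UMIs, which allows up to 2.76 and 0.916 CPM. It did not pass the filter on low counts and was not tested between layers.

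Of the genes for the use of ceramide and sphingosine, Ugcg and Sphk1 were lower in superficial than in basal cells. Ugcg, the glucosylceramide synthase that starts most glycosphingolipids, was measured in basal cells at 199.97, 113, 216, 109, 119 and 257 CPM and in superficial cells at 122, 53.2, 95.4, 46.2, 43.7 and 82.6 CPM. The spread within a condition was wide, with healthy 1, acute 1 and chronic 2 above the other library of their condition in every layer. These 3 libraries also had the higher median UMIs per cell (8665 to 9138, against 5530 to 7237), and the part of depth in the levels was not tested. Within a library Ugcg was nonetheless lower in superficial than in basal cells in 6 of 6 cases, with a difference of -1.05 (SE 0.09, edgeR adjusted p = 1.0e-09) and one of -0.90 from intermediate cells (SE 0.09, edgeR adjusted p = 1.5e-08). From basal to intermediate cells it was -0.16 (95% interval -0.32 to 0.01, edgeR adjusted p = 0.14). Intermediate cells were not uniform in Ugcg. Its mean was 60.1 CPM in a sub-cluster with 0.679% basal cells by score and 203 CPM in another with 3.90%. The superficial sub-cluster, at 72.7 CPM, lay between them, so a low level of Ugcg was not particular to superficial cells.

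Sphk1, a kinase that makes sphingosine 1-phosphate, was measured in basal cells at 17.2, 17.7, 11.2, 12.4, 24.8 and 14.1 CPM, in intermediate cells at 10.8, 5.84, 5.98, 6.17, 10.5 and 8.53 CPM and in superficial cells at 6.45, 3.55, 3.12, 4.13, 4.81 and 5.90 CPM. All basal values lay above all intermediate ones, while intermediate and superficial values overlapped between libraries but not within one. The difference was -0.96 from basal to intermediate (SE 0.12, edgeR adjusted p = 2.3e-06) and -0.66 from intermediate to superficial cells (SE 0.16, edgeR adjusted p = 1.5e-03). Sgms2, a sphingomyelin synthase of the plasma membrane, had 6.27, 0.520, 5.45, 0.852, 0.920 and 2.44 CPM in basal cells and 0.561, 0, 0.480, 0.376, 0.437 and 0.437 CPM in superficial cells, where the 0 in healthy 2 allows up to 1.52 CPM. The basal libraries of healthy 1 and acute 1 stood above the others, and Sgms2 did not pass the filter on low counts.

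Of the 8 members that could be tested, 4 were called between intermediate and basal cells (1 higher, 3 lower), against 39.7% of the 11218 genes tested (19% higher, 20.7% lower). Between superficial and intermediate cells 7 of 8 were called (4 higher, 3 lower), against 54.8% of all genes (28.3% higher, 26.6% lower). Between superficial and basal cells 8 of 8 were called (4 higher, 4 lower), against 64.8% of all genes (32.7% higher, 32.1% lower). Acer2 is one of the higher genes in all 3 counts and was listed for that pattern. The median difference of the members was -0.18, -0.01 and -0.29 in these 3 comparisons, and that of all genes tested -0.01, 0.01 and 0.01. TMM scaling moved fold changes of superficial against basal cells up by 0.16 relative to plain CPM. Median-ratio factors in place of TMM and DESeq2 left each of these layer calls in place.

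Among 54 other sphingolipid genes, of which 48 were listed in all tables and 44 could be tested, 27 were called between intermediate and basal cells (17 higher, 10 lower), against 39.7% of all genes, and 35 between superficial and intermediate cells (25 higher, 10 lower), against 54.8%. Between superficial and basal cells 34 were called (23 higher, 11 lower), against 64.8% of all genes (32.7% higher, 32.1% lower), with a median over the 44 genes of 0.45 and over all genes of 0.01. Of the 13 synthesis genes of this list (other than the members), 9 were higher and 2 lower in that comparison, with a median of 0.60. The Ormdl genes, regulators of serine palmitoyltransferase, are counted among the synthesis genes, so no direction of synthesis is read from this count. The largest rises belonged to St3gal5, which makes the ganglioside GM3, and to Spns2, an exporter of sphingosine 1-phosphate. St3gal5 had 4.5, 24.3, 11.8, 6.4, 18.1 and 12.7 CPM in superficial cells and at most 1.5 CPM in basal and intermediate cells, and differed from basal cells by 4.05 (SE 0.27). Spns2 had 18.8, 47.1, 60.05, 42.5, 51.3 and 54.2 CPM in superficial cells, without overlap with the basal range of 1.9 to 7.3 CPM, and differed by 3.66 (SE 0.16). In both genes healthy 1 was the lowest superficial library, as it was for Acer2. The largest falls belonged to Gal3st1, which makes sulfatide (-2.55, SE 0.13), and to Cerk, which phosphorylates ceramide (-2.54, SE 0.21). Between intermediate and basal cells the largest differences were 1.53 for Spns2 and 1.14 for Gm2a, the GM2 activator, and -1.18 for Gal3st1 and -1.12 for B4galnt1, the GM2 synthase.

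The genes whose mean levels over the 14 urothelial sub-clusters were most like those of Acer2, among 4314 genes with at least 50 CPM in a sub-cluster, were Rab11fip5 (Pearson's r = 0.99), Fam25c (0.99), Clu (0.98), Cds1 (0.98) and Ndrg2 (0.98). These correlations describe 14 points from the same 6 libraries, and all 5 genes had their highest level in the same superficial sub-cluster as Acer2. Of the other members, Cers5 had an r of 0.70, Cers4 0.24, Acer3 0.22 and Asah1 0.10. Negative values were found for Cers2 (-0.86), Sphk1 (-0.83), Degs1 (-0.65), and Ugcg and Sgms2 (-0.51 each). Ugcg did not simply run opposite to Acer2. It had 60.1 CPM in one sub-cluster and 203 CPM in another, both with Acer2 at 227.5 CPM. Sgms2 and Degs1 were low throughout, at no more than 4.04 and 5.97 CPM in a sub-cluster.

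Cycling cells were called from scores of S and G2M genes, at least 2 median absolute deviations above the median. Mki67, a proliferation gene that is part of these scores, had 16.8 to 139 CPM in cycling basal and 0.818 to 4.41 CPM in other basal cells, but in cycling intermediate cells only 1.22 CPM in healthy 2 and 12.5 to 51.1 CPM in the other libraries, against 0.535 to 3.34 CPM in other intermediate cells. In cycling against non-cycling basal cells 2 of 9 members tested were called, against 14.7% of 11723 genes (8.63% higher, 6.06% lower). Ugcg was lower in 6 of 6 libraries (159, 76.5, 155, 97.3, 116 and 214 CPM in cycling basal cells), by -0.36 (SE 0.09, edgeR adjusted p = 4.9e-03), and Acer3 was higher in 5 of 6 libraries, by 0.39 (SE 0.12, edgeR adjusted p = 0.024). Both calls were lost without acute 1, with differences of -0.31 and 0.29, and that of Acer3 also without acute 2 (0.39, edgeR adjusted p = 0.063). Acer2 was measured at 50.4, 88.9, 65.4, 59.6, 109 and 112 CPM in cycling basal cells, within 0.09 log2 units of non-cycling basal cells in each library. The other members differed between -0.21 (Asah1) and 0.29 (Degs1). In cycling against non-cycling intermediate cells edgeR called 0 of 9 members, against 3.67% of all genes (3.14% higher, 0.529% lower), with 2 members at an unadjusted p below 0.05. Acer2 was lower there in 6 of 6 libraries, by -0.30 (95% interval -0.51 to -0.08, edgeR adjusted p = 0.14), and the other 8 members differed between -0.17 (Ugcg) and 0.12 (Sgms2). With a stricter cycling threshold of 4 median absolute deviations the cycling intermediate class went from 4025 to 678 cells, with Mki67 at 13.2 to 181 CPM. There 3 members were called, against 16.6% of all genes, which were Acer2 (-0.39), Ugcg (-0.42) and Asah1 (-0.34). In cycling basal cells, 1174 at that threshold, 3 members were called against 26.9% of all genes, with Ugcg at -0.65, Acer3 at 0.62 and Asah1 at -0.52.

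The sub-cluster of cycling cells with superficial markers lay between intermediate and superficial cells for Acer2, which was listed as a marker of superficial cells, so that its values here are a description. Acer2 was measured there at 594, 569.5, 624 and 746 CPM in acute 1, acute 2, chronic 1 and chronic 2, which was above every intermediate and below every injured superficial library. Against superficial cells 4 of 9 members were called, all of them lower, against 37% of all genes in either direction and 22% lower. Acer2 differed by -1.26 (SE 0.12) and Cers2, at 12.3, 7.40, 13.6 and 11.6 CPM, by -0.79 (SE 0.16, edgeR adjusted p = 1.0e-04). Asah1, at 101, 92.7, 111 and 150.3 CPM, was lower in 4 of 4 libraries by -0.60 (SE 0.09, edgeR adjusted p = 3.7e-07). Ugcg differed by -0.44 (SE 0.12, edgeR adjusted p = 2.9e-03), with lower CPM in 3 of 4 libraries, and this call was lost without acute 1. Of the members that were not called, Sphk1 differed by -0.58, Degs1 by -0.01, Acer3 by 0.11 and Sgms2 by 0.35, and Cers5 by less than 0.01. Against intermediate cells 7 of 9 members were called (3 higher, 4 lower), against 53.9% of all genes (23.9% higher, 30% lower), which were Acer2 (1.48), Acer3 (0.80), Cers5 (0.49), Cers2 (-1.71), Ugcg (-1.35), Sphk1 (-1.25) and Asah1 (-0.46), whereas Degs1 (-0.22) and Sgms2 (-0.54) were not called. Acer2 is among the members called in both comparisons, and nothing is read from its part in these counts.

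Among the members Cers4, Degs1, Sgms2 and Sphk1 differed most between fibroblasts and urothelial cells, all being higher in fibroblasts. Degs1 was measured in fibroblasts at 125, 94.1, 66.4, 90.0, 113 and 54.03 CPM and in all urothelial cells at 5.26, 2.85, 2.98, 3.32, 4.81 and 3.62 CPM. Cers4 was measured in fibroblasts at 20.2, 21.4, 24.9, 33.6, 30.1 and 5.69 CPM, and in urothelial cells at 0.583 to 1.32 CPM. Chronic 2, the library with the fewest fibroblasts, was the lowest for both. Of its 94 fibroblasts 66 belonged to the sub-cluster led by urothelial genes, and the 10 urothelial genes stood at a median of 58.8% of their urothelial level. Without that sub-cluster the 28 fibroblasts left in chronic 2 had 103 CPM of Degs1 and 0 UMIs of Cers4, which allows up to 30.9 CPM. With all fibroblasts kept, the fibroblast values of both genes lay above all urothelial ones. The differences were 4.56 for Degs1 (SE 0.18, edgeR adjusted p = 1.7e-19) and 4.81 for Cers4 (SE 0.24, edgeR adjusted p = 1.8e-17), and without chronic 2 they were 4.60 and 4.83.

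Sphk1 followed the same order, with fibroblast levels of 69.4, 53.1, 83.0, 60.4, 63.5 and 62.6 CPM against 6.53 to 11.4 CPM in urothelial cells, a difference of 2.93 (SE 0.20, edgeR adjusted p = 4.2e-14). Sgms2 had fibroblast levels of 16.0, 11.7, 19.4, 8.85, 12.2 and 11.4 CPM against 0.307 to 2.34 CPM, a difference of 3.73 (SE 0.29, edgeR adjusted p = 8.0e-13). Neither gene overlapped between the classes. Cers2 and Cers5 were higher in fibroblasts by 1.08 (SE 0.14) and 0.61 (SE 0.15), whereas Acer3 did not differ beyond its error (-0.08, 95% interval -0.38 to 0.23). Ugcg (-0.45, edgeR adjusted p = 7.6e-03) and Asah1 (-0.33, edgeR adjusted p = 0.033) were lower in fibroblasts, calls that were both lost with DESeq2 (adjusted p = 0.076 and 0.14) and without healthy 1 (edgeR adjusted p = 0.063 and 0.11). Without the fibroblast sub-cluster led by urothelial genes the difference of Ugcg was -0.84 (edgeR adjusted p = 1.8e-05) and that of Asah1 -0.35 (edgeR adjusted p = 0.030). In all, 9 of 10 members were called (6 higher, 3 lower), against 67.3% of 10140 genes (32.3% higher, 35.1% lower), and the median of the members was 0.84, against -0.05 for all genes. Acer2, listed as a marker of superficial urothelial cells, is one of the lower members here. The same holds for myofibroblasts, macrophages and endothelial cells against urothelial cells, and nothing is read from its part in these counts.

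Of the 4754 myofibroblasts, 975 were in a sub-cluster led by contractile genes such as Actg2 and Acta2. In myofibroblasts Cers4 was measured at 35.2, 29.4, 34.8, 44.7, 56.6 and 44.3 CPM, Degs1 at 93.8, 94.9, 75.6, 74.3, 144 and 55.3 CPM and Sphk1 at 72.4, 46.0, 59.0, 23.3, 56.6 and 77.4 CPM. Against urothelial cells 8 of 10 members were called (5 higher, 3 lower), against 66.8% of all genes (31.8% higher, 35.1% lower), with Cers4 at 5.52, Degs1 at 4.54, Sgms2 at 3.95, Sphk1 at 2.60 and Cers2 at 1.09. Acer3 differed by -0.67 and Asah1 by -0.38, a call that Asah1 lost with DESeq2, without healthy 1 and without healthy 2 (-0.22, -0.31 and -0.33), whereas Ugcg (-0.12) was not called and Cers5 (0.28, edgeR adjusted p = 0.13) was called with DESeq2 and without chronic 2 (0.45 and 0.34). Between myofibroblasts and fibroblasts 2 of 10 were called, against 13.9% of all genes (7.74% higher, 6.18% lower). Cers4 was higher in myofibroblasts in 6 of 6 libraries, by 0.71 (SE 0.22, edgeR adjusted p = 0.029), and Acer3 lower in 6 of 6, by -0.59 (SE 0.18, edgeR adjusted p = 0.028). The difference of Degs1 was -0.02 (95% interval -0.36 to 0.32) and that of Cers2 0.01 (95% interval -0.30 to 0.32), and the other 6 members differed between -0.32 (Cers5 and Sphk1) and 0.33 (Ugcg). Without the fibroblast sub-cluster led by urothelial genes the difference of Ugcg was 0.64 and was called (edgeR adjusted p = 5.9e-03). In that fit Cers5 was called as well (-0.49, edgeR adjusted p = 0.041), and Acer3 was still called (-0.69). Neither of the 2 calls was made when doublets were kept or when cells with 3 or more urothelial genes were left out, where Cers4 differed by 0.39 and Acer3 by -0.65. Leaving out those cells kept 2271 of 5736 fibroblasts and 1704 of 4754 myofibroblasts, and the part of these lower numbers was not tested. Cers4 was not called without the fibroblast sub-cluster richest in urothelial RNA, without healthy 1 or without acute 1 (0.50, 0.68 and 0.74), nor Acer3 without acute 2 or without chronic 2 (-0.36 and -0.56).

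**Figure D2:**
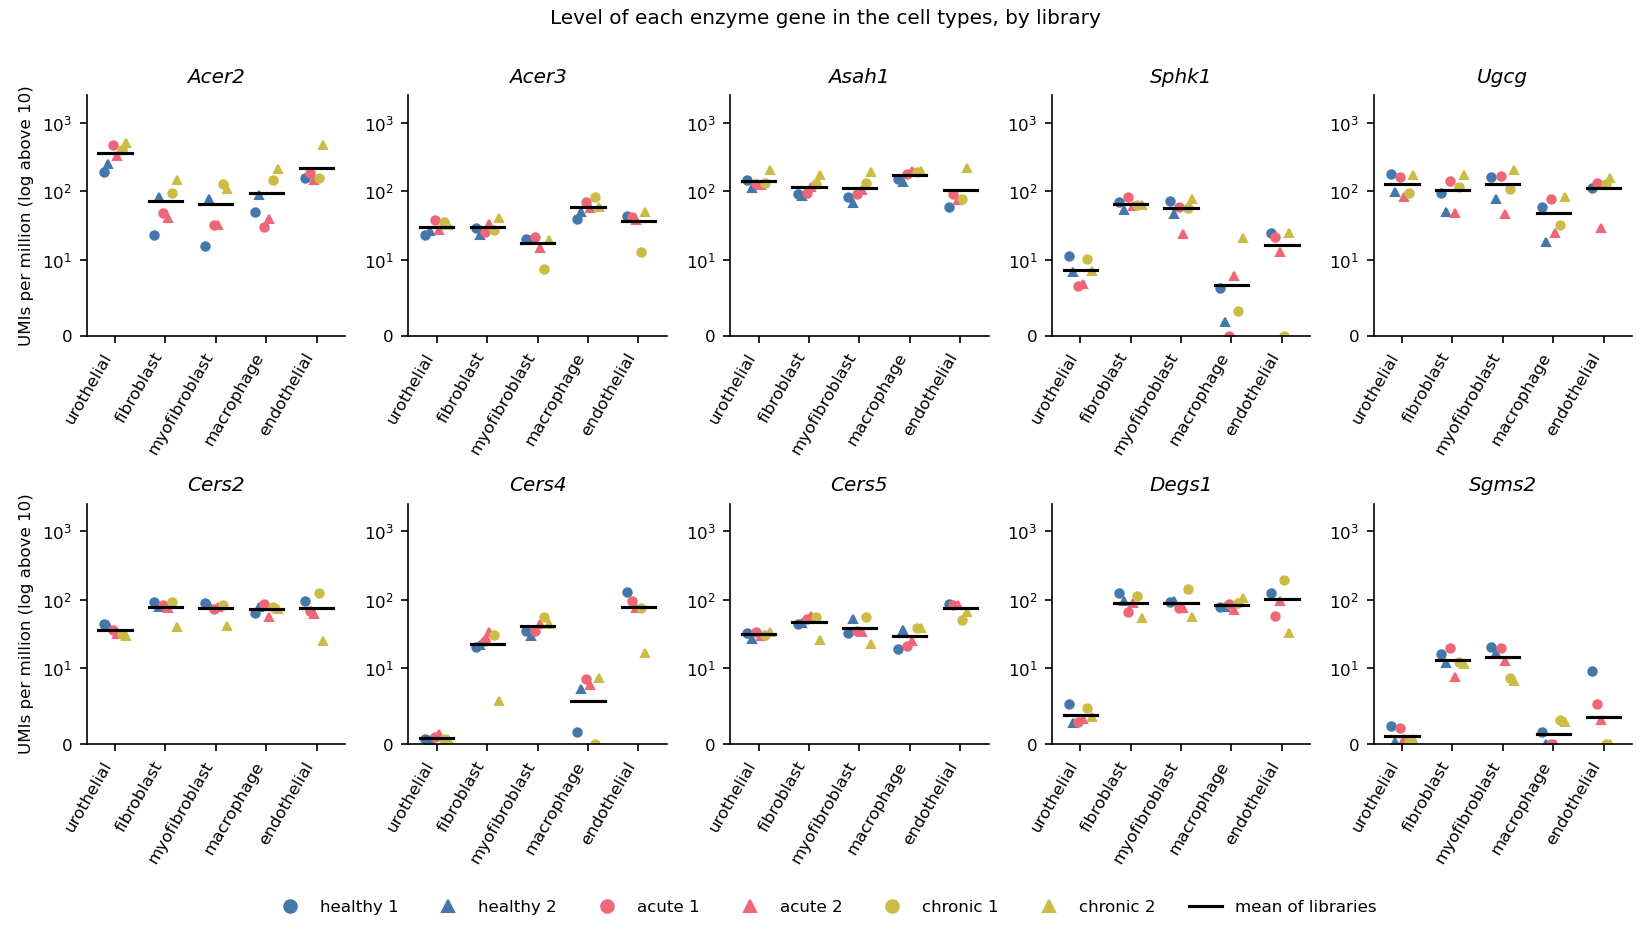
Levels of the 10 genes in CPM of the class in urothelial cells, fibroblasts, myofibroblasts, macrophages and endothelial cells, on an axis that is linear below 10 and logarithmic above. Points are libraries, colored by condition, and bars are means over libraries. Degs1 lies between 2.85 and 5.26 in urothelial cells and above 30 in every other class, and the mean of Cers4 is highest in endothelial cells.

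Acer2 was found in all stromal classes at a lower level than in the pooled urothelial cells of the same library, which include superficial cells. In fibroblasts it was measured at 22.8, 81.8, 48.4, 40.3, 93.9 and 145 CPM. In myofibroblasts it was measured at 15.6, 76.3, 31.8, 32.4, 126 and 108 CPM. The differences from pooled urothelial cells were -2.56 (SE 0.24) and -2.78 (SE 0.25). Against basal cells alone the order was not the same in every library. Fibroblasts of chronic 2 and myofibroblasts of chronic 1 lay above the basal cells of their library (114 and 104 CPM). All other fibroblast and myofibroblast values lay below the basal value of their library. Transcripts restricted to the urothelium were present in stromal cells at a like proportion. In fibroblasts Acer2 reached a median of 18.0% of its urothelial level in the same library, and 10 urothelial genes (uroplakins, keratins, Epcam and Cdh1) reached 16.2% to 21.1%. In myofibroblasts these values were 15.6% for Acer2 and 12.1% to 18.0% for the 10 genes, and in macrophages 30.2% and 21.2% to 26.5%. Library by library, Acer2 lay within the range of the 10 genes in 3 of 6 fibroblast, 4 of 6 myofibroblast and 3 of 6 macrophage samples. The part of urothelial RNA in the stromal levels of Acer2 was not tested beyond these values. In the other direction, 6 mesenchymal genes such as Dcn and Col1a1 were found in basal, intermediate and superficial cells at medians of 0.889% to 2.46% of their fibroblast level, and in the same order Degs1 reached 5.99%, 3.40% and 3.38%, Sphk1 23.6%, 12.3% and 7.21%, Sgms2 15.6%, 5.77% and 3.55%, and Cers4 2.74%, 3.32% and 5.26%.

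**Figure D3:**
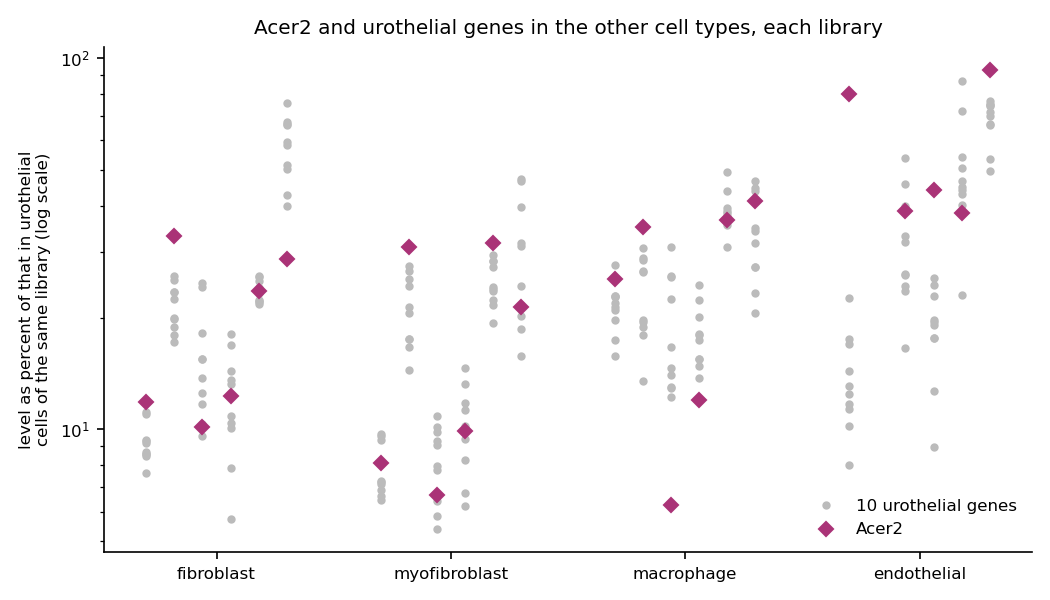
Level of Acer2 (diamonds) and of 10 urothelial genes (grey points) in 4 other cell types as a percentage of the level in urothelial cells of the same library (logarithmic axis). Within each cell type the libraries run from healthy 1 on the left to chronic 2 on the right, without healthy 2 for endothelial cells. Acer2 lies within the grey range in 3 of 6 fibroblast and 2 of 5 endothelial samples, and above it in the other endothelial samples.

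In macrophages 7 of 10 members were called against urothelial cells (5 higher, 2 lower), against 57% of all genes (24.6% higher, 32.4% lower). Degs1 was measured at 77.2, 79.2, 85.2, 70.5, 88.9 and 105 CPM and was higher by 4.69 (SE 0.20, edgeR adjusted p = 3.6e-19). Acer3, at 39.4, 48.6, 68.1, 56.1, 82.5 and 58.4 CPM, was higher in 6 of 6 libraries, by 1.17 (SE 0.17, edgeR adjusted p = 8.8e-07), and Asah1, at 135 to 196 CPM, by 0.57 (SE 0.14, edgeR adjusted p = 1.2e-03). Ugcg was the member with the lowest macrophage level relative to the epithelium apart from Acer2, with 58.3, 18.0, 76.6, 24.8, 31.7 and 81.7 CPM and a difference of -1.30 (SE 0.18, edgeR adjusted p = 3.0e-07). Cers2 was higher by 1.201, and Cers4 (2.95) rested on 16 macrophage UMIs in all. Cers5 (0.12), Sgms2 (0.36) and Sphk1 (-0.11) were not called. After leaving out macrophages with 3 or more urothelial genes, 4 members were still called (Degs1, Cers2, Ugcg and Acer2), and Acer3 (0.93), Asah1 (0.52) and Cers4 (1.19) were not. This filter left 240 of 926 macrophages, with 4 in the library that had the fewest. Whether the calls were lost through fewer cells or less urothelial RNA was not tested, and the share of all genes called under the filter is not given here.

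Of these 5 classes endothelial cells had the highest mean levels of Cers4 and Cers5. Cers4 was measured in healthy 1, acute 1, acute 2, chronic 1 and chronic 2 at 129.9, 94.8, 76.0, 76.2 and 16.4 CPM, and Cers5 at 86.6, 84.2, 84.1, 50.8 and 65.7 CPM. Both lay above all urothelial values of the same gene, with differences of 6.32 (SE 0.32, edgeR adjusted p = 1.6e-16) and 1.18 (SE 0.21, edgeR adjusted p = 3.4e-05). Chronic 2, with 27 endothelial cells, was by far the lowest for Cers4, and urothelial genes reached a median of 70.7% of their urothelial level in it. Degs1 and Cers2 were higher by 4.47 (SE 0.24) and 0.80 (SE 0.20), and Asah1 and Ugcg were lower by -0.82 (SE 0.19) and -0.74 (SE 0.20). In all, 7 of 10 members were called (4 higher, 3 lower), against 45.4% of all genes (21.1% higher, 24.3% lower). Cers5 was not called after leaving out cells with 3 or more urothelial genes (0.86), a filter that left 181 of 495 endothelial cells. Sgms2 and Sphk1, which edgeR did not call (1.84 and 0.87), were called by DESeq2. Acer3 (0.20) was not called. Acer2 reached a median of 44.0% of its urothelial level, with the 10 urothelial genes at 22.9% to 53.4%. In healthy 1 it stood at 80.0%, above the 7.99% to 22.6% of these genes. It also stood above all of them in acute 2 (44.0%, against at most 25.5%) and chronic 2 (92.9%, against at most 76.5%). In acute 1 and chronic 1 it lay within their range. TMM scaling moved fold changes by 0.22 in macrophages and by -0.22 in endothelial cells relative to CPM.

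Several members differed in direction from their neighbors in the pathway. Of 13 other synthesis genes, again counted with the Ormdl regulators, 10 were lower and 1 higher in fibroblasts than in urothelial cells. Their median was -1.75, while the members Cers2, Cers4, Cers5 and Degs1 were all higher. Degs2, the homolog of Degs1 that also hydroxylates ceramide, had 71.9, 91.5, 73.9, 60.3, 166.5 and 92.0 CPM in urothelial cells and 5.9, 22.6, 15.2, 7.6, 41.2 and 76.8 CPM in fibroblasts, the reverse of Degs1. Cers3, a synthase for ultra-long chains, differed by -2.59 (SE 0.23), and Sptlc3, a subunit of serine palmitoyltransferase, by -2.60 (SE 0.27). The largest rises in fibroblasts were those of B4galt5, a lactosylceramide synthase (4.99, SE 0.26), and S1pr2, a receptor for sphingosine 1-phosphate (4.26, SE 0.24). Over the whole list 34 of 44 genes tested were called in fibroblasts (13 higher, 21 lower), against 67.3% of all genes, and 36 in myofibroblasts (14 higher, 22 lower), against 66.8%. In macrophages 36 were called (19 higher, 17 lower), against 57%, and in endothelial cells 25 (9 higher, 16 lower), against 45.4%. In myofibroblasts S1pr2 (4.11), B4galt5 (4.09), Cers3 (-3.17) and the fatty acid hydroxylase gene Fa2h (-3.03) differed most. In macrophages these were the receptor gene S1pr1 (5.05), St3gal5 (4.57), Cers3 (-2.03) and Degs2 (-1.996), and in endothelial cells S1pr1 (8.38), S1pr4 (3.94), Ormdl1, a regulator of serine palmitoyltransferase (-2.12), and Fa2h (-1.99). S1pr1 had 250.3, 242, 183, 139.8 and 132 CPM in endothelial cells and at most 1.2 CPM in urothelial cells. Between myofibroblasts and fibroblasts 7 of 44 genes were called (4 higher, 3 lower), a share near the 13.9% of all genes, led by Gm2a (1.85) and B4galnt1 (1.77) and, downwards, by Gltp, a glycolipid transfer protein (-0.64), and Sgpp1, a phosphatase for sphingosine 1-phosphate (-0.64).

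**Figure D4:**
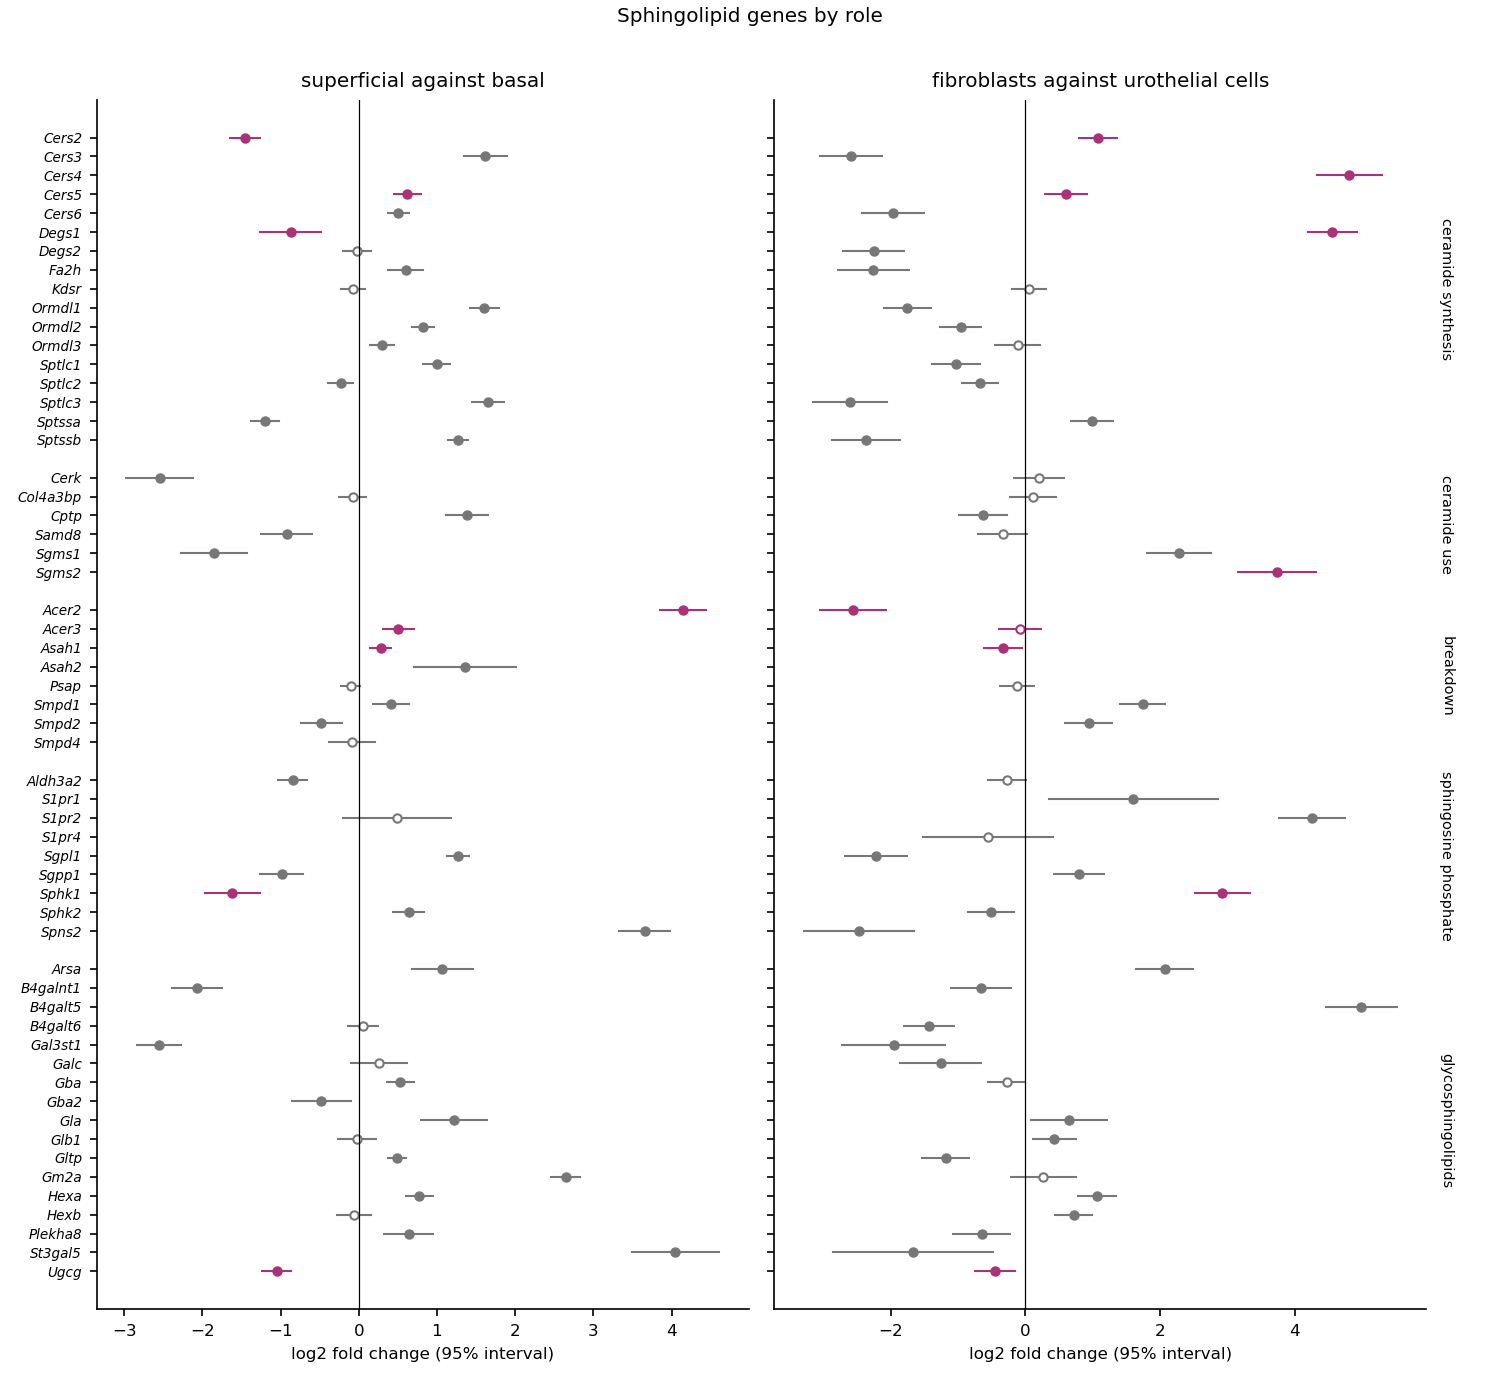
Log2 fold changes with 95% intervals for the members (purple) and the other sphingolipid genes (grey), grouped by role, in superficial against basal cells and in fibroblasts against urothelial cells. Filled points have an adjusted p below 0.05. The other synthesis genes (Ormdl regulators included) lie mostly to the right in superficial cells and to the left in fibroblasts. Cers2 and Degs1 lie on the opposite side in both. Acer2 is a description in both panels, since it was chosen as a marker of superficial urothelial cells.

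Injury was compared with the healthy state within basal, intermediate and superficial cells, fibroblasts and myofibroblasts, to ask whether the enzymes change during regeneration. No member was called in any of the 10 comparisons by edgeR or DESeq2. Over all genes edgeR called 0% in each urothelial layer, 0.00883% in fibroblasts in both injuries, and 0.0345% in acute and 0% in chronic myofibroblasts. Between 233 and 735 genes per comparison were at an unadjusted p below 0.05, with 8690 to 13069 genes tested, and DESeq2 called between 7 and 51 genes. Both injuries share the 2 healthy libraries as controls. At an unadjusted p below 0.05 stood 1 member each in 5 of the 10 comparisons, with 8 to 10 members tested in each of the 10. These members are given below as a description. Acer2 in chronic intermediate cells, at 239.8 and 271 CPM, lay above 154 and 176 CPM in healthy ones, with a difference of 0.65 (95% interval 0.21 to 1.10, edgeR's unadjusted p = 0.010 and edgeR adjusted p = 0.98). Chronic libraries were also above healthy ones for Acer2 in basal cells, fibroblasts and myofibroblasts, but not in superficial cells, where healthy 2 (1535 CPM) was above both. In fibroblasts the median of the 10 urothelial genes was 23.6% and 58.8% of the urothelial level in the chronic libraries, against 8.91% and 21.2% in the healthy ones.

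Cers2 in superficial cells was measured at 28.1 and 20.3 CPM in healthy, 17.3 and 13.3 CPM in acute and 16.2 and 16.0 CPM in chronic libraries. All 4 injured libraries lay below both healthy ones, with differences of -0.67 in acute (95% interval -1.26 to -0.07, edgeR adjusted p = 0.99) and -0.61 in chronic injury (95% interval -1.21 to -0.01, edgeR adjusted p = 0.75). Acer3 in chronic basal cells, at 49.7 and 33.9 CPM, was above 23.7 and 27.2 CPM in healthy ones, a difference of 0.71 (95% interval 0.02 to 1.39, edgeR adjusted p = 0.96). Asah1 in chronic myofibroblasts, at 131 and 191 CPM, was above 82.9 and 66.6 CPM, a difference of 1.07 (95% interval 0.31 to 1.84, edgeR adjusted p = 0.65). The median of the 10 urothelial genes in myofibroblasts was 24.001% and 27.8% of the urothelial level in the chronic libraries, against 7.22% and 20.9% in the healthy ones, and its part in the difference of Asah1 was not tested. Over the 10 comparisons the members' differences lay between -1.17 (Sgms2, chronic myofibroblasts) and 1.41 (Acer2, chronic myofibroblasts). Those of Ugcg in basal cells were 0.09 in acute (95% interval -0.87 to 1.05) and 0.28 in chronic injury (95% interval -0.68 to 1.25). Healthy 1 and acute 1, with 199.97 and 216 CPM, lay close together there, as did healthy 2 and acute 2 with 113 and 109 CPM, so that the spread within a condition was wider than the difference between the conditions.

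**Figure D5:**
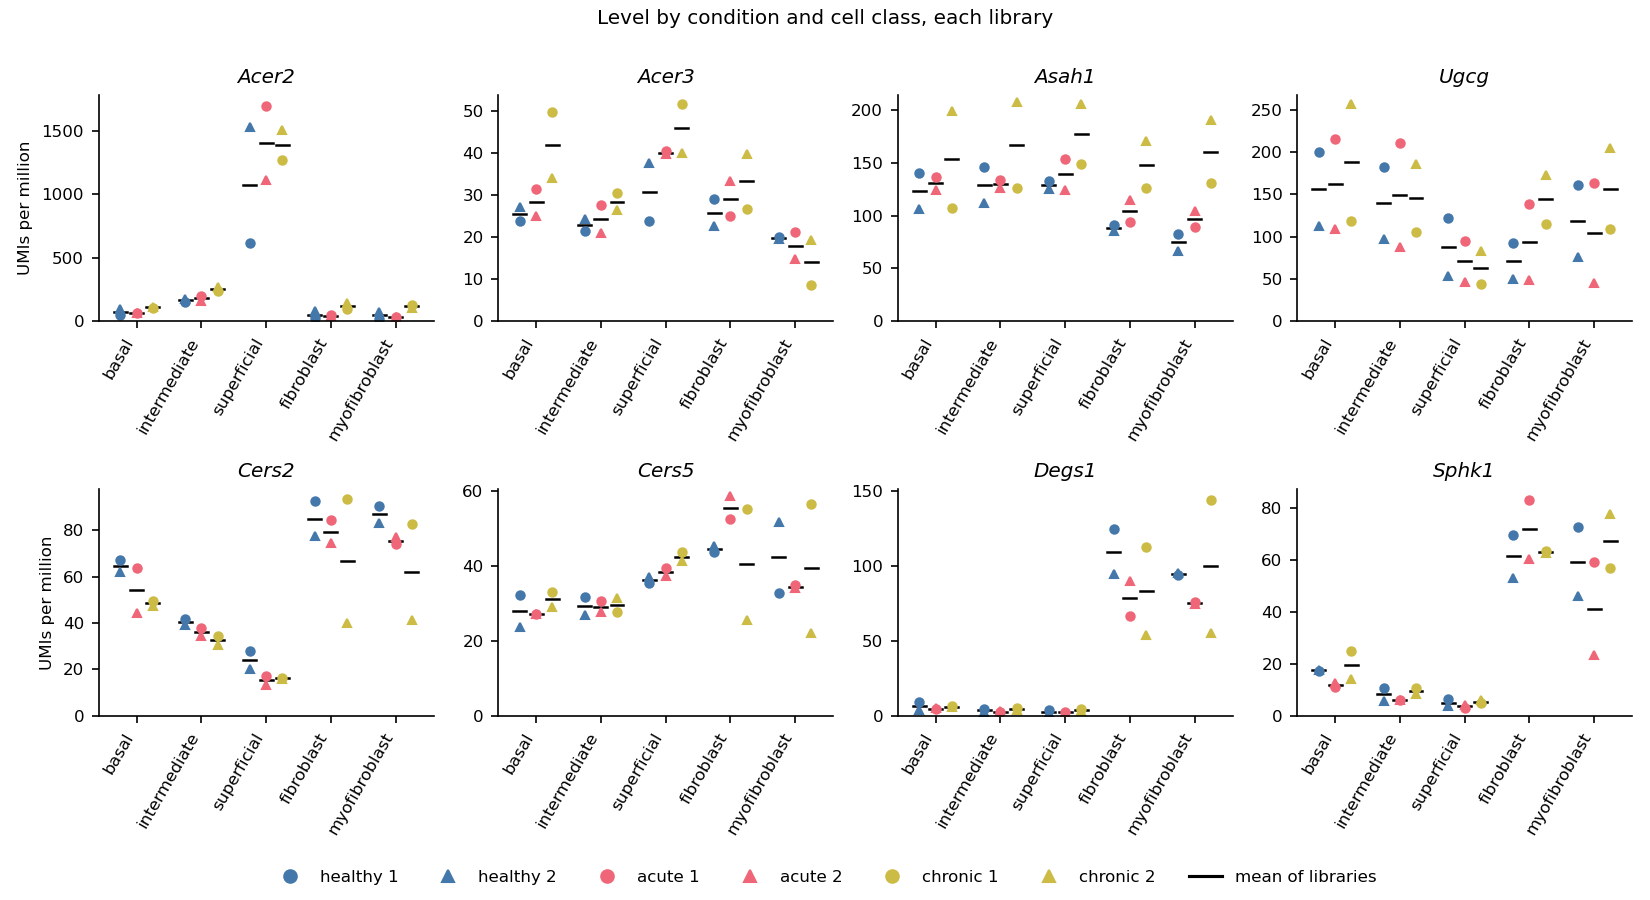
Levels of 8 members in CPM of the class in 5 cell classes, with the healthy, acute and chronic libraries side by side (2 points each, bars are their means, axes start at 0). The points of a condition often lie as far apart as those of different conditions, as for Ugcg in basal cells with 199.97 and 113 in the healthy libraries, and no member passed the test.

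The difference between superficial and intermediate cells was also compared between conditions. No member passed the test in edgeR or DESeq2, against 0.488% of 11682 genes called for acute minus healthy and 0.154% for chronic minus healthy. Of the 8 members tested, 2 and 1 were at an unadjusted p below 0.05 in edgeR. The superficial minus intermediate difference of Ugcg, set against that of the healthy libraries, was -0.36 in acute injury (95% interval -0.71 to -0.02, edgeR adjusted p = 0.52) and -0.54 in chronic injury (95% interval -0.89 to -0.19, edgeR adjusted p = 0.26). That of Cers2 was -0.55 in acute injury (95% interval -1.001 to -0.10). The other members lay between -0.001 (Sphk1) and 0.35 in acute injury, and all members other than Ugcg between -0.32 (Cers2) and 0.28 (Acer3) in chronic injury. The value for Acer2 was 0.35 in acute injury (95% interval -0.16 to 0.86) and turned on the healthy libraries. It was -0.23 without healthy 1 and 0.92 without healthy 2 (edgeR adjusted p = 0.041), fits in which the healthy library left is assumed to vary like the other groups. It was also negative with sub-clusters made without integration, and in neither case called.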

How the data were processed

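Reads had been aligned to mm10 with Cell Ranger, and the authors deposited the resulting UMI counts of each cell, without normalization, for 6 libraries of bladder mucosa. The deposited table of healthy 1 ends in a line cut short, which was dropped, and low genes are missing from the tables of healthy 1 and acute 1, so that genes listed in all 6 tables were used. A cell needed more than 500 genes and less than 10% of UMIs from mitochondrial genes (55398 passed), 4469 doublets were removed at a Scrublet rate of 0.8% per 1000 cells with 977 further cells of doublet-rich clusters, and libraries were integrated with sctransform 0.4.2 and Seurat 5.3.0 in R 4.3.3 (3000 features). Leiden clusters (leidenalg 0.10.2, resolution 0.8, scanpy 1.11.5, 19 clusters) were named from marker lists. A marker counted when its CPM in a cluster was at least 0.25 of that in its top cluster, a rule settled after the clusters were seen. A urothelial sub-cluster of 118 cells led by collagen genes was left out. Counts were summed per library and class (at least 20 cells) and tested with edgeR 4.0.16 (TMM, filterByExpr, quasi-likelihood, Benjamini-Hochberg threshold 0.05, 95% intervals from the t distribution with edgeR's degrees of freedom), with DESeq2 1.42.0 as an alternative. Conditions were fitted without a replicate block. In simulated data for superficial against intermediate cells and for acute against healthy intermediate cells, 200 genes were changed 4-fold. Of these 197 and 198 passed the filter on low counts, and edgeR recovered 197 and 156, while 14 and 12 unchanged genes were also called. The members' differences between conditions were all smaller than 4-fold, so the recovery does not tell how often changes of their size would be called. Alternatives changed the scaling, filters, doublets, integration, cycling threshold, cells carrying RNA of other types, and libraries left out. The members, gene lists and tests were chosen with earlier results of these data known. Members were to be named in every comparison (over conditions in part by their range), and of the other sphingolipid genes the 2 largest rises and the 2 largest falls among those called, with at least 10 CPM in a class and 1 direction in all libraries. A count of 0 allows up to 3 UMIs, a limit for counting error only.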

Additional observations from a re-analysis of the deposited data

Results flagged for a closer look

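In the following cases every library of one condition lay on one side of zero and every library of another on the opposite side, for the difference in log2(CPM + 1) between 2 cell classes of the same library. The cases were picked by a search of the members over several pairs of cell classes and every pair of conditions. How many other genes meet the same rule was not counted, so the number of cases is not read as a result. With 2 libraries a condition these differences between conditions were not tested. Ugcg was lower in fibroblasts than in urothelial cells in healthy (-0.92 and -0.91) and acute libraries (-0.72 and -0.18) and higher in chronic ones (0.04 and 0.28), a change of 1.07 from healthy and 0.61 from acute mucosa. The fibroblasts compared were not the same mix of cells, since the sub-cluster led by urothelial genes held 44.0% and 70.2% of them in chronic 1 and 2, 30.8% and 35.0% in healthy 1 and 2, and 45.2% and 8.36% in acute 1 and 2. Without this sub-cluster, a choice made after seeing the data, Ugcg was lower in fibroblasts in all 6 libraries (-1.29 and -1.27 in healthy, -0.56 and -0.80 in acute, -0.05 and -0.71 in chronic ones). In myofibroblasts it moved the same way, from -0.34 and -0.12 in healthy to 0.20 and 0.28 in chronic libraries, a change of 0.47. Urothelial genes were higher in the same samples, at medians of 23.6% and 58.8% of the urothelial level in chronic against 8.91% and 21.2% in healthy fibroblasts, and 24.001% and 27.8% against 7.22% and 20.9% in myofibroblasts, and their part in these changes was not tested.

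Asah1 was lower in myofibroblasts than in fibroblasts in healthy and acute and higher in chronic libraries, with changes of 0.35 and 0.21, and Sgms2 did the reverse, with changes of -0.82 from healthy and -0.67 from acute libraries. Without the same fibroblast sub-cluster Asah1 was no longer higher in chronic 1 (-0.03), and Sgms2 was no longer higher in acute 1 (-0.18). The Sgms2 levels rested on 2 and 3 UMIs in chronic myofibroblasts and on 4 in the fibroblasts of chronic 2. Chronic 2 had 94 fibroblasts and both chronic libraries about 100 myofibroblasts (101 and 106), and the part of these low numbers was not tested. In cycling against non-cycling basal cells Asah1 differed between chronic and acute libraries by 0.57, and Degs1 by -0.58 between chronic and healthy and by -0.70 between chronic and acute libraries. In cycling against non-cycling intermediate cells the changes from acute to chronic libraries were 0.11 for Asah1 and -1.56 for Degs1, which rested on 60 UMIs over all 6 libraries of cycling intermediate cells.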

How the results depend on the processing

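Over the alternatives, 334 counts of members called stayed within 1.5 times the value given, 4 were higher and 10 lower, and of single fold changes 38 fell below and 22 rose above the threshold, 167 that were called in neither case moved by more than 1 SE and 2951 did none of these, without a change of sign in a called value. Between myofibroblasts and fibroblasts 0 members were called with doublets kept and 0 with cells of 3 or more urothelial genes left out, and 1 to 2 with single libraries left out. Without the fibroblast sub-cluster led by urothelial genes 3 were called there. For macrophages the filter on cells with 3 or more urothelial genes, which kept 240 of 926 cells, left 4 members called. In cycling basal cells 1 member was called with sub-clusters made without integration and 0 to 3 with single libraries left out, and in cycling intermediate cells 1 without integration and 3 at the stricter cycling threshold. For the difference between superficial and intermediate cells 1 member was called for chronic minus healthy with cells of over 1000 genes and under 5% mitochondrial UMIs, and 0 to 1 for acute minus healthy with single libraries left out. The causes were not tested. Without integration no cycling cluster with superficial markers was found, so it gave no value there. The replicate numbers were not taken to pair the samples. Same-numbered healthy and acute libraries deviated together in all 5 classes (correlations 0.15 to 0.43), whereas those of chronic with either condition had correlations of -0.50 to 0.17. With a replicate block 0 members and at most 3 genes were called between conditions in any class. With the block crossed for the chronic libraries, an alternative chosen after seeing the data, these were 0 members and at most 7 genes. Leaving out the 15 fibroblasts led by lymphocyte genes, also chosen after seeing the data, changed no call of a member. Without the filter on low counts, 10 members were called between superficial and basal cells. These include Cers4 and Sgms2, which have few UMIs in the layers and did not pass that filter. The share of all genes called in that fit is not given here, so nothing is read from this count.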

Other observations

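NK and mural cells reached 20 cells in few libraries and entered no comparison. In NK cells of healthy 1, healthy 2 and acute 2, Ugcg was measured at 233, 132 and 79.0 CPM, Cers4 at 31.4, 32.95 and 65.4 CPM and Acer3 at 8.96, 6.59 and 5.45 CPM. The NK values for Ugcg lay within the range of the urothelial layers, and those for Cers4 above all urothelial values. Acer3 rested on 5 NK UMIs in all. In these cells the 10 urothelial genes stood at a median of 31.1% to 78.8% of their urothelial level. In mural cells of acute 1 and acute 2, Degs1 was measured at 56.4 and 93.6 CPM, Cers4 at 28.2 and 16.3 CPM and Sphk1 at 47.0 and 8.14 CPM, on 29, 7 and 7 UMIs.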
